A study of Mus musculus with 10 samples.

Results

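Smooth muscle contractile genes of the mouse mammary myoepithelium were described across 5 sorted cell populations. The 6 genes were Acta2, Actg2, Tagln, Mylk, Myl9 and Tgfb1i1. They were chosen by name with earlier results of these data known, taking every probe set whose only gene symbol was 1 of these. They were represented by 10 probe sets of the 3663 in the table, and made up 6 of the 2932 features tested. Acta2 and Mylk had 3 probe sets each, and the other genes had 1 each.

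RNA was measured on Affymetrix mouse expression arrays, 2 per population, in mammary cells of virgin FVB females aged 6 to 8 weeks, an inbred strain with no engineered allele or treatment named in the labels. The basal populations were CD24medCD49fmed, which the description of the series names as myoepithelial, and the Thy-1+CD24medCD49fhigh and Thy-1-CD24medCD49fhigh parts of a gate used to enrich repopulating cells, with 6 arrays in all. The luminal populations were CD24medCD49f-/low and CD24highCD49fmed, with 4 arrays in all. Cells carrying CD45, CD31, Ter119 or CD140α, which mark blood, endothelial and some stromal cells, were excluded from every population. CD24 and CD49f (integrin α6) separate luminal from basal cells, and Thy-1 is a surface glycoprotein. The study's text has CD24lowCD49fmed for the myoepithelial gate where the labels have CD24medCD49fmed, and whether these are the same gate is not stated. Whether the 2 arrays of a population hold RNA of different mice is not stated, and the spread behind each p-value may therefore be technical. The deposited values are log2 intensities centred on each probe set's mean over the 10 arrays. They show differences between arrays but not abundance, so levels of different genes could not be compared.

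Myoepithelial cells form the outer, basal layer of mammary ducts and alveoli and squeeze out milk when oxytocin binds its receptor. They are epithelial cells that carry the contractile apparatus of smooth muscle. In this apparatus, calcium and calmodulin activate myosin light chain kinase, the kinase phosphorylates the regulatory light chain of myosin, and myosin then pulls on filaments of smooth muscle actin. Many of the genes are controlled by serum response factor with cofactors of the myocardin family through the CArG box, and by TEAD factors through the MCAT motif.

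Promoters are shown to place these motifs beside the values. They matched for 3 of the 6 genes, Myl9, Mylk and Acta2, which encode the myosin light chain, its kinase and an actin, and are not shown for Actg2, Tagln and Tgfb1i1. The sequences are from RefSeq on GRCm38.p6 and run from 250 bases before to 50 bases after the annotated start. Matches to the CArG box, to a CArG-like box with 1 G or C among its central 6 bases, or to the MCAT motif CATTCC are in capitals. Both strands were searched, and a match on the other strand appears as its reverse complement.
Myl9, chr2:156775214-156775513, + strand: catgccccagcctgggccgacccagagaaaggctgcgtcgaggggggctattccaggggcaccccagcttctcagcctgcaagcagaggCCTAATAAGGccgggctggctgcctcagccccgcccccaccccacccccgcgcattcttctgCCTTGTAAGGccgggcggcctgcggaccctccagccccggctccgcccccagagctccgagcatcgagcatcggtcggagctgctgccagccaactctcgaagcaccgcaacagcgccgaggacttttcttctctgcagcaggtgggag
Mylk, chr16:34784700-34784999, + strand: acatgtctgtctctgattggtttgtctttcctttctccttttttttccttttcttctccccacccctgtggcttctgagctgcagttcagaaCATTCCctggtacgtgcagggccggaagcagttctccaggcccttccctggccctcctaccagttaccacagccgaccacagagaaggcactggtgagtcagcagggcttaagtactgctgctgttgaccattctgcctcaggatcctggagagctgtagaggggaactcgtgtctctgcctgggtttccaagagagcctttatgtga
Acta2, chr19:34255324-34255623, - strand: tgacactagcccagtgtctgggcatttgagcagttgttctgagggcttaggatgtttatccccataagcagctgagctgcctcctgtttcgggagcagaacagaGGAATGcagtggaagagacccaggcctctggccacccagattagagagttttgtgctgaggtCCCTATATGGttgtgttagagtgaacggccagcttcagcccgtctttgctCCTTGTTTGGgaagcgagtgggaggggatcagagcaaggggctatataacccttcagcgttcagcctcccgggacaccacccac

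The Myl9 promoter held a CArG box from -161 to -152 and a CArG-like box from -99 to -90, counted from the start. The Acta2 promoter held CArG-like boxes from -84 to -75 and from -34 to -25, and an MCAT motif on the opposite strand from -146 to -141. The Mylk window held an MCAT motif from -158 to -153. None of these matches overlapped. Among 32851 promoters of the same length, 1.63% held a CArG box, 8.5% a CArG-like box and 14.7% an MCAT motif. Of the 25 genes in the table that were one of the 6 or belonged to the lists of actin-binding and myosin genes, 21 had a promoter. Of these, 3 held a CArG box, 2 a CArG-like box and 8 an MCAT motif. These matches describe letters and are not evidence of binding. 

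Some basal arrays stood apart in some luminal markers, but not in all. The median over the 7 luminal epithelial markers in the table was 0.60 in Thy-1+CD24medCD49fhigh replicate 2 and 0.25 in CD24medCD49fmed replicate 3, against -1.89 to -0.23 in the other basal arrays and -0.12 to 1.72 in the luminal arrays. Foxa1, a transcription factor of hormone-sensing luminal cells, was at 0.52 and 0.45 in those 2 basal arrays, below its 1.62 to 2.12 in the luminal arrays and above its -3.43 to -1.29 in the other basal arrays. Over 4 hormone-sensing markers the median was 0.13 and -0.39 in those 2 arrays, against -2.16 to -0.65 in the other basal arrays. Over 6 luminal progenitor markers it was -0.25 and -1.24 in the same order, and the highest basal value was 0.05, in Thy-1-CD24medCD49fhigh replicate 2. In CD24medCD49fmed replicate 3, Epcam at -0.87 and Ehf at -1.16 lay within the range of the other basal arrays. The part of luminal cells in the contractile gene values was not tested.

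All 6 contractile genes were higher in basal than in luminal cells. Each basal array lay above its mean over the 10 arrays and each luminal array below it for every one of the genes, so the basal and luminal arrays did not overlap. Differences lay between 2.78 for Acta2 and 4.61 for Actg2 on the log2 scale, with a median of 3.42, against a median of -0.11 over all features. All 6 were called at an adjusted p under 0.05 (limma, Benjamini-Hochberg over 2932 features). In this comparison 34.7% of all features were called higher, 41.3% were called lower and 25.2% were higher without overlap, so a call was common in this table. Without Thy-1+CD24medCD49fhigh replicate 2 the differences lay between 2.84 and 4.90, and without CD24medCD49fmed replicate 3 between 2.84 and 4.65, with all 6 called. In bulk samples such as these, fewer cells of a type and less RNA per cell cannot be told apart.

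**Figure D1:**
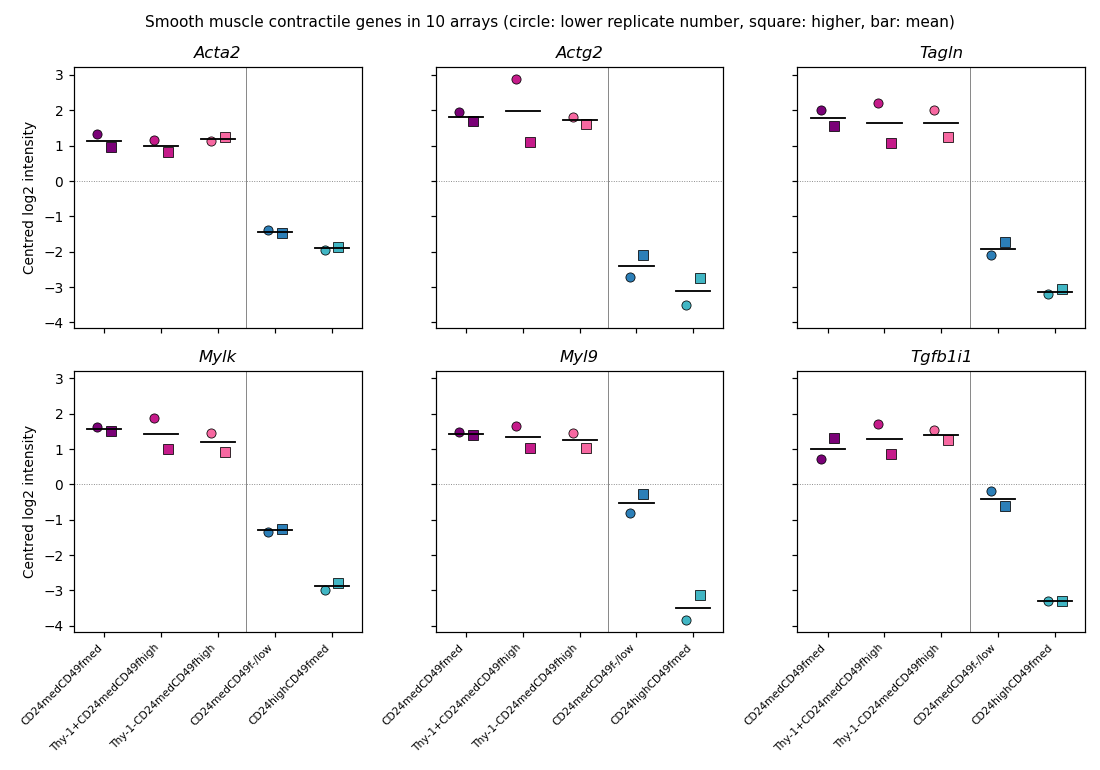
Centred log2 intensity of each contractile gene (y axis) in the 10 arrays, grouped by population (x axis). Points are arrays, bars are means of 2 arrays, and the vertical line separates basal (left) from luminal populations. All 6 basal arrays lie above 0 and all 4 luminal arrays below 0 in every panel, while Myl9 and Tgfb1i1 show the widest steps between the luminal populations.

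Actg2 encodes smooth muscle γ-actin, a filament-forming actin best known from visceral muscle. Its centred log2 values were 1.96 and 1.68 in CD24medCD49fmed, 2.88 and 1.11 in Thy-1+CD24medCD49fhigh and 1.80 and 1.62 in Thy-1-CD24medCD49fhigh. In luminal cells they were -2.72 and -2.10 in CD24medCD49f-/low and -3.50 and -2.73 in CD24highCD49fmed. The Thy-1+ arrays were the highest and the lowest of the basal arrays, 1.77 apart, and the basal and luminal arrays did not meet. Basal minus luminal was 4.61 ± 0.37 (SE), 24.4-fold, with an adjusted p of 5.86e-09 (limma). Ordered from the highest difference in favour of basal cells, this was position 2 of the 2932 features.

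Acta2 encodes smooth muscle α-actin, the actin by which myoepithelial cells are usually stained. Averaged over its 3 probe sets, it was at 1.32 and 0.97 in CD24medCD49fmed, 1.17 and 0.83 in Thy-1+CD24medCD49fhigh and 1.12 and 1.26 in Thy-1-CD24medCD49fhigh. It was at -1.40 and -1.46 in CD24medCD49f-/low and at -1.95 and -1.86 in CD24highCD49fmed. Arrays of 1 population differed by at most 0.34, and the basal arrays stood clear of the luminal ones. The difference between basal and luminal cells was 2.78 ± 0.31 (SE), 6.87-fold, with an adjusted p of 3.91e-07 (limma).

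The difference of Acta2 depended on the probe set. It was 4.50 ± 0.32 (SE) for 1416454_s_at, 1.79 ± 0.32 for 1444105_at and 2.04 ± 0.34 for 1456658_at, each called when probe sets were tested alone. The suffix of 1416454_s_at marks a probe set that can match several transcripts, so its part from near-identical actin genes is uncertain. The value of 2.78 averages these unequal probe sets.

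Tagln encodes transgelin, an actin-binding protein of the calponin family. Its values were 2.00 and 1.55 in CD24medCD49fmed, 2.21 and 1.07 in Thy-1+CD24medCD49fhigh and 2.01 and 1.25 in Thy-1-CD24medCD49fhigh, against -2.09 and -1.73 in CD24medCD49f-/low and -3.21 and -3.06 in CD24highCD49fmed. The lowest basal array and the highest luminal array lay on opposite sides of 0, and the arrays of each basal population were 0.45 to 1.14 apart. On average basal cells were higher by 4.20 ± 0.34 (SE), 18.4-fold, with an adjusted p of 6.69e-09 (limma).

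Mylk encodes myosin light chain kinase, the calcium-dependent switch of contraction. Averaged over 3 probe sets, it was at 1.62 and 1.50 in CD24medCD49fmed, 1.87 and 1.00 in Thy-1+CD24medCD49fhigh and 1.46 and 0.91 in Thy-1-CD24medCD49fhigh, against -1.35 and -1.25 in CD24medCD49f-/low and -2.97 and -2.78 in CD24highCD49fmed. The luminal replicates were close to each other and the 2 luminal populations did not overlap. Basal cells exceeded luminal cells by 3.48 ± 0.33 (SE), 11.2-fold, with an adjusted p of 3.48e-08 (limma). All 3 probe sets had the same direction, with 2.20 ± 0.32 for 1425504_at, 4.32 ± 0.35 for 1425505_at and 3.92 ± 0.32 for 1425506_at.

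**Figure D2:**
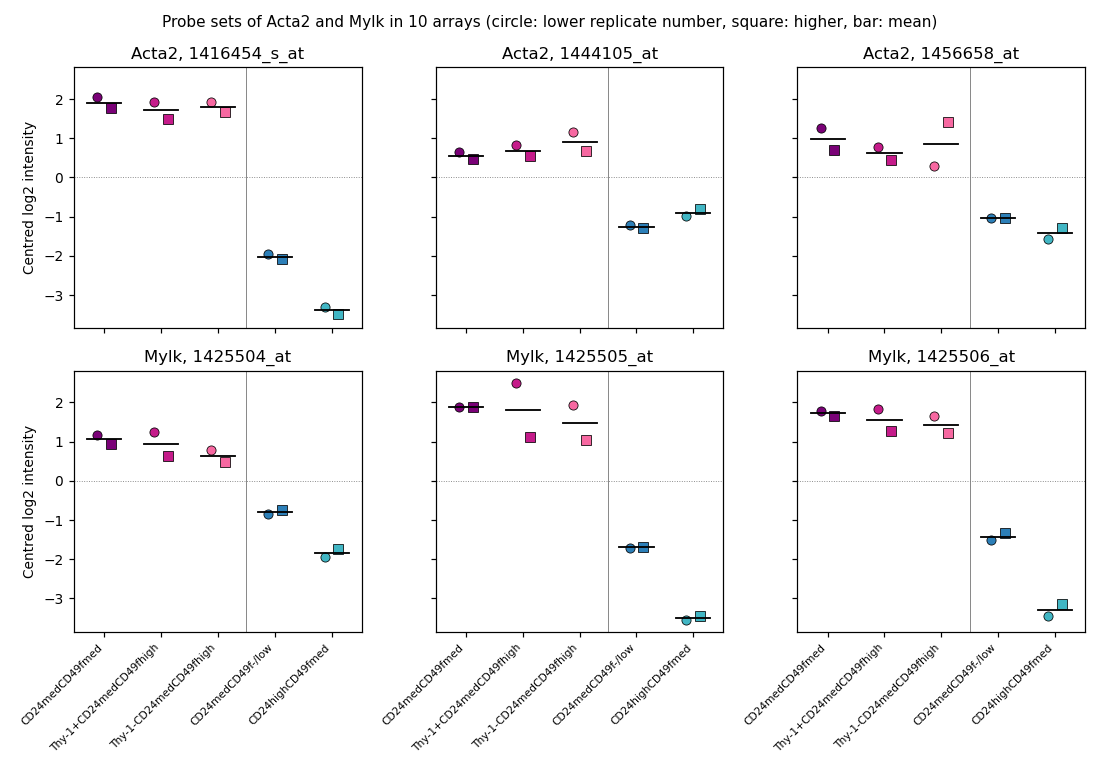
Centred log2 intensity (y axis) of the 3 probe sets of Acta2 (top) and of Mylk (bottom) in the 10 arrays, grouped by population (x axis). Points are arrays, bars are means of 2 arrays, and the vertical line separates basal (left) from luminal populations. The probe sets of a gene differ in the size of the step, and 1444105_at alone has CD24medCD49f-/low below CD24highCD49fmed.

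Myl9 encodes the regulatory light chain of smooth muscle myosin, the substrate of that kinase. It was at 1.47 and 1.39 in CD24medCD49fmed, 1.65 and 1.04 in Thy-1+CD24medCD49fhigh and 1.46 and 1.04 in Thy-1-CD24medCD49fhigh. It was at -0.82 and -0.26 in CD24medCD49f-/low and at -3.83 and -3.14 in CD24highCD49fmed. The CD24medCD49f-/low arrays thus lay nearer to the basal arrays than to the CD24highCD49fmed arrays. Its basal mean was higher by 3.35 ± 0.33 (SE), 10.2-fold, with an adjusted p of 6.60e-08 (limma).

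Tgfb1i1 encodes Hic-5, a LIM domain protein of focal adhesions that is induced by TGFβ and also acts as a transcriptional coregulator. Its values were 0.71 and 1.30 in CD24medCD49fmed, 1.71 and 0.87 in Thy-1+CD24medCD49fhigh and 1.55 and 1.26 in Thy-1-CD24medCD49fhigh. They were -0.19 and -0.62 in CD24medCD49f-/low and -3.29 and -3.31 in CD24highCD49fmed. As for Myl9, the CD24medCD49f-/low arrays lay between the other populations and nearer to the basal ones. The basal mean of Tgfb1i1 was higher by 3.09 ± 0.33 (SE), 8.49-fold, with an adjusted p of 1.94e-07 (limma).

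Against each luminal population separately, the 6 genes were again all called higher in basal cells, beside 27.5% of all features called higher than in CD24medCD49f-/low and 30.6% called higher than in CD24highCD49fmed. The 2 comparisons share their basal arrays. Basal minus CD24medCD49f-/low was 2.54 ± 0.40 (SE) for Acta2, 4.25 ± 0.47 for Actg2, 3.59 ± 0.43 for Tagln, 2.69 ± 0.41 for Mylk, 1.88 ± 0.42 for Myl9 and 1.64 ± 0.42 for Tgfb1i1. Basal minus CD24highCD49fmed was 3.02 ± 0.40 for Acta2, 4.96 ± 0.47 for Actg2, 4.82 ± 0.43 for Tagln, 4.27 ± 0.41 for Mylk, 4.83 ± 0.42 for Myl9 and 4.53 ± 0.42 for Tgfb1i1. Actg2 stood highest against both populations, whereas Myl9 and Tgfb1i1 had the smallest differences from CD24medCD49f-/low. The median of all features was 0.17 in the first comparison and -0.41 in the second. In the 36 single comparisons of a basal with a luminal population, all 36 were called higher, with differences between 1.41 and 5.11. Against CD24medCD49f-/low, 22% of all features were called higher in CD24medCD49fmed, 18.9% in Thy-1+CD24medCD49fhigh and 17.4% in Thy-1-CD24medCD49fhigh, and against CD24highCD49fmed these shares were 27.4%, 26.3% and 21.8% in the same order. The weakest was Tgfb1i1 in CD24medCD49fmed against CD24medCD49f-/low, with an adjusted p of 0.0372 (limma). With array quality weights, which gave the CD24medCD49f-/low arrays the lowest weight, Tgfb1i1 was no longer called against that population (adjusted p = 0.0613, limma).

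**Figure D3:**
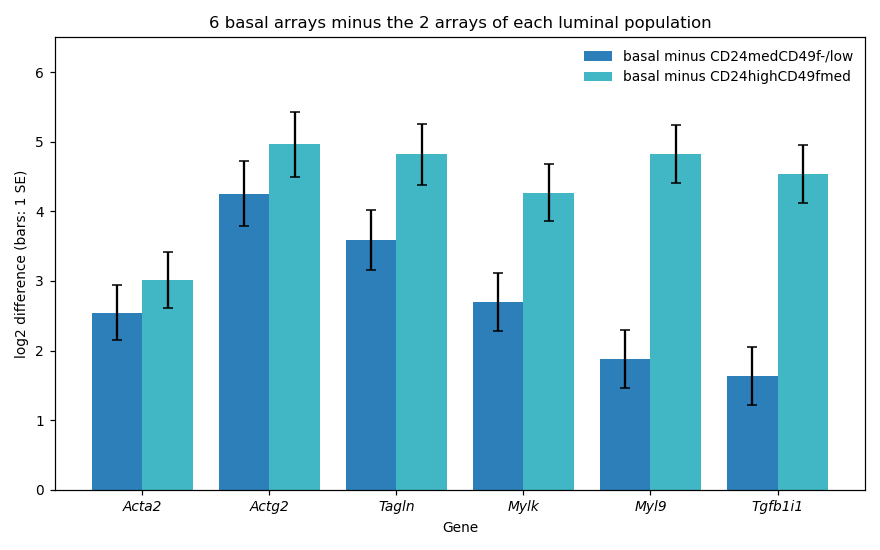
Log2 difference of the mean of the 3 basal populations minus each luminal population (y axis, bars start at 0) for the 6 contractile genes (x axis). Error bars are 1 SE from the fit. For Acta2 and Actg2 the 2 bars differ least, and for Myl9 and Tgfb1i1 the bar against CD24highCD49fmed stands at 4.83 and 4.53 beside 1.88 and 1.64 against CD24medCD49f-/low.

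The luminal populations differed in 2 of the 6 genes. Myl9 was 2.95 ± 0.51 (SE) higher in CD24medCD49f-/low than in CD24highCD49fmed on the log2 scale, 7.71-fold, with a 95% interval of 1.88 to 4.01 and an adjusted p of 0.0179 (limma). Tgfb1i1 was 2.89 ± 0.51 higher, 7.43-fold, with an interval of 1.83 to 3.96 and an adjusted p of 0.0179. Ordered from the highest signed difference, in favour of CD24medCD49f-/low, these were positions 1 and 2 of the 2932 features. The genes were chosen with earlier results of these data known, so these positions are a description and not independent evidence. The background was low in this comparison, with 0.136% of features called higher, 4 in number, and 0.0682%, 2 in number, called lower. Besides Myl9 and Tgfb1i1 the features called higher were Sparc, a matricellular protein, at 2.36 ± 0.49, and Ism1, a secreted protein, at 2.46 ± 0.51. Those called lower were Ect2, a cytokinesis factor, at -3.07 ± 0.62, and Spc25, a kinetochore subunit, at -2.83 ± 0.56. Without adjustment 451 features passed a p under 0.05. The median of all features was -0.35, so the contractile genes stood above it by more than their difference from 0.

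The other 4 genes did not pass the threshold. Mylk was 1.58 ± 0.51 (SE) apart with an interval of 0.52 to 2.63 and an adjusted p of 0.166, Tagln 1.23 ± 0.53 with 0.12 to 2.33 and an adjusted p of 0.271, Actg2 0.71 ± 0.57 with -0.48 to 1.90 and an adjusted p of 0.527, and Acta2 0.47 ± 0.49 with -0.54 to 1.48 and an adjusted p of 0.629 (limma). For all 6 genes both CD24medCD49f-/low arrays lay above both CD24highCD49fmed arrays, as they did for 14.2% of all features. For Actg2 that separation was only between -2.72 and -2.73. The median over the 6 genes was 1.40. Whether the gap differed between the genes was not tested.

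The calls of Myl9 and Tgfb1i1 rested on small margins. Both were called in 9 of 18 alternative settings and not in the other 9, which included quantile normalisation, where Myl9 was at 2.20 (adjusted p = 0.625) and Tgfb1i1 at 2.03 (adjusted p = 0.825), array quality weights (adjusted p = 0.0668 for both) and the fit to only the 4 luminal arrays (adjusted p = 0.331 for both). The difference stayed positive in every setting, from 2.20 to 3.32 for Myl9 and from 2.03 to 3.27 for Tgfb1i1, and adjusted p-values ran from 0.00132 to 0.625 and from 0.00136 to 0.825. Without replicate 1 of CD24highCD49fmed the adjusted p was 0.439 for both genes, and without replicate 2 it was 0.148 for Myl9 and 0.232 for Tgfb1i1. Leaving out any Thy-1+ array gave 0.0600 for both, and any Thy-1- array gave 0.0630 for both, although those arrays are in neither luminal population and only their spread entered the fit. The study listed Myl9, Mylk and Tgfb1i1 among genes of CD24medCD49f-/low that it chose on these arrays, so the direction of these genes is not independent evidence.

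The CD24medCD49f-/low arrays were also the least alike pair. Their correlation over all probe sets was 0.364 and their mean absolute difference was 0.925, against 0.924 and 0.377 for the CD24highCD49fmed pair. The basal pairs correlated at 0.449 for Thy-1+, 0.647 for Thy-1- and 0.669 for CD24medCD49fmed. Each CD24medCD49f-/low array correlated more with the CD24highCD49fmed array of its number than with its partner, at 0.761 for replicate 1 and 0.596 for replicate 2. The 6 contractile genes agreed better than most features between the 2 CD24medCD49f-/low arrays, with gaps of 0.07 to 0.61 against a median gap of 0.74 over all features. The gap of Myl9 between replicates was 0.55 and that of Tgfb1i1 was 0.43, both smaller than their differences from CD24highCD49fmed.

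As a percentage of the way from CD24highCD49fmed to the basal mean, CD24medCD49f-/low stood at 63.8% for Tgfb1i1, 61.0% for Myl9, 36.9% for Mylk, 25.5% for Tagln, 15.6% for Acta2 and 14.3% for Actg2. The values of the single CD24medCD49f-/low arrays were 68.6% and 59.1% for Tgfb1i1, 55.3% and 66.8% for Myl9, 35.7% and 38.0% for Mylk, 21.8% and 29.2% for Tagln, 16.7% and 14.6% for Acta2 and 8.12% and 20.5% for Actg2. The adaptor and the myosin light chain thus lay beyond the midpoint in both arrays and the actins near the luminal end in both. For Acta2 this position averaged unequal probe sets, at 26.4% for 1416454_s_at, 17.7% for 1456658_at and -21.8% for 1444105_at. Over the 892 features called higher by more than 1 in basal than in CD24highCD49fmed cells, the median position was 17.7%, with an interquartile range of 0.687% to 32.4%. This median was 8.23% with replicate 1 of CD24medCD49f-/low and 24.7% with replicate 2. Among the basal markers, Snai2 stood at 40.3%, Id4 at 38.1%, Krt5 at 37.3%, Krt17 at 34.9%, Trp63 at 25.3% and Krt14 at 19.9%. Among the stromal markers the highest were Rgs5, a pericyte marker, at 60.7%, Col1a1, a fibrillar collagen, at 56.0% and Dpt, a fibroblast marker, at 43.7%. The other stromal markers ran from -5.87% for Abcc9 to 39.0% for Pdpn. Setting array medians to 0 moved Myl9 to 67.4%, Acta2 to 27.2% and Actg2 to 21.4%. Quantile normalisation moved them to 56.1%, 10.4% and 0.144% in the same order.

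Probe sets of 1 gene did not give the same luminal difference. For Acta2, CD24medCD49f-/low minus CD24highCD49fmed was 1.37 ± 0.49 (SE) for 1416454_s_at, 0.40 ± 0.53 for 1456658_at and -0.35 ± 0.49 for 1444105_at, none called (adjusted p = 0.207, 0.727 and 0.742, limma on probe sets). For Mylk it was 1.05 ± 0.50 for 1425504_at, 1.81 ± 0.55 for 1425505_at and 1.87 ± 0.50 for 1425506_at, none called (adjusted p = 0.321, 0.129 and 0.0758). Mylk's reporters thus had 1 direction, and Acta2's did not.

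**Figure D4:**
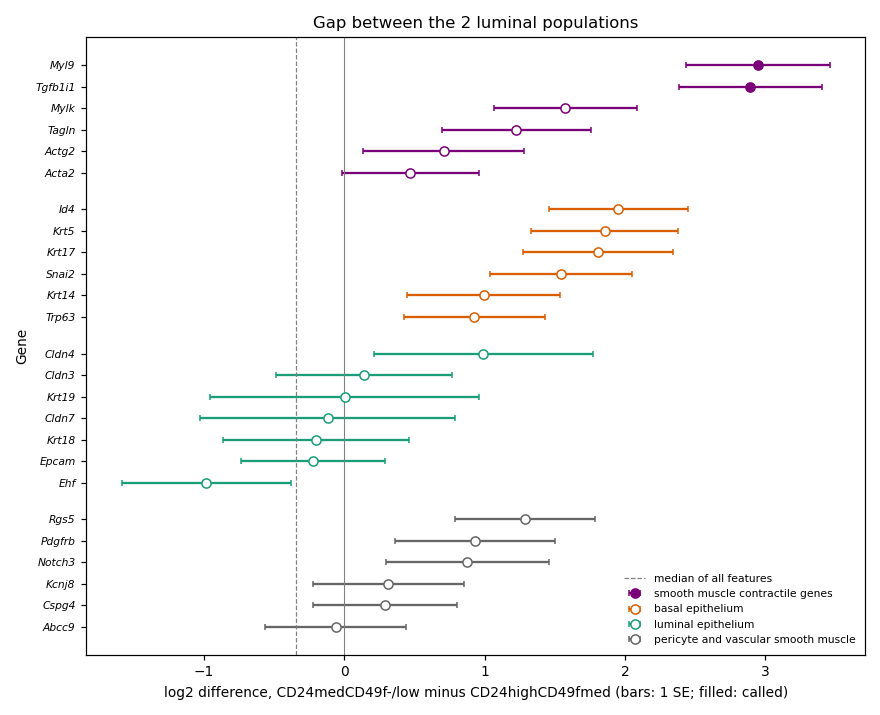
Log2 difference of CD24medCD49f-/low minus CD24highCD49fmed (x axis) for the 6 contractile genes and for markers of basal epithelium, luminal epithelium and pericytes (y axis). Points are differences with 1 SE from the fit, filled where called, and the dashed line is the median of all features at -0.35. Only Myl9 at 2.95 and Tgfb1i1 at 2.89 are filled, and all 6 basal epithelial markers lie between 0.93 and 1.95 without a call.

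Markers of other cell types were read beside this gap. Of 6 basal epithelial markers in the table, none was called, but their median difference was 1.68, with Id4 at 1.95 ± 0.49 (SE; adjusted p = 0.0876, limma), Krt5, a basal keratin, at 1.86 ± 0.52 (adjusted p = 0.109) and Krt14, another basal keratin, at 0.99 ± 0.55 (adjusted p = 0.374). Krt5 was at -1.77 and -1.24 in CD24medCD49f-/low and at -3.26 and -3.46 in CD24highCD49fmed. Summed up by the median over the 6 markers, the basal list was at -1.66 and -1.41 in CD24medCD49f-/low and at -3.17 and -3.38 in CD24highCD49fmed, against 1.23 to 2.05 in the basal arrays. Of the pericyte list 6 of 10 were in the table, with a median difference of 0.60 and none called, and of the fibroblast list 6 of 10, with 0.68 and none called. Rgs5, a pericyte marker, was at -0.05 and -0.43 in CD24medCD49f-/low and at -1.52 and -1.54 in CD24highCD49fmed, a difference of 1.29 ± 0.50 (adjusted p = 0.244). Of the 7 luminal epithelial markers in the table the median difference was -0.12 and none was called. For the 6 luminal progenitor markers it was -0.20 and for the 4 hormone-sensing markers -0.07, with none called. No endothelial marker of 5 and 1 leukocyte marker of 5 were in the table, and because values are centred it could not be said which markers were at background. The part of other cells in the luminal gap was not tested.

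Among the basal populations no difference in the contractile genes was called. CD24medCD49fmed minus the mean of the CD24medCD49fhigh populations was 0.05 (95% interval -0.83 to 0.93) for Acta2, -0.03 (-1.06 to 1.00) for Actg2, 0.14 (-0.82 to 1.10) for Tagln, 0.25 (-0.66 to 1.16) for Mylk, 0.14 (-0.79 to 1.06) for Myl9 and -0.34 (-1.26 to 0.58) for Tgfb1i1. The intervals left room for differences of around 1 on the log2 scale in either direction, so a modest difference was not detectable with these arrays. In this comparison 0.0341% of features, 1 in number, were called by limma, and 52 passed an unadjusted p under 0.05. Actg2 and Tgfb1i1 were the only negative differences, and the signs of Acta2, Actg2, Tagln and Myl9 turned with the scaling, the block or the arrays left out.

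Thy-1+CD24medCD49fhigh minus Thy-1-CD24medCD49fhigh was -0.18 (95% interval -1.20 to 0.83) for Acta2, 0.28 (-0.91 to 1.47) for Actg2, 0.01 (-1.10 to 1.11) for Tagln, 0.25 (-0.80 to 1.30) for Mylk, 0.09 (-0.97 to 1.16) for Myl9 and -0.12 (-1.18 to 0.95) for Tgfb1i1. None of the 6 was called, beside 0.0682% of all features, 2 in number, and 74 at an unadjusted p under 0.05 (limma). Replicate 1 of Thy-1+ stood above replicate 2 for all 6 genes, by 0.34 for Acta2 and by 1.77 for Actg2. Luminal markers ran the other way in these arrays, with Krt19 at -0.86 in replicate 1 and 1.56 in replicate 2. Without replicate 2 the differences lay between -0.016 for Acta2 and 1.16 for Actg2, and none was called. The median of the pericyte list was 1.16 and that of the fibroblast list 1.38 in the same comparison, and Col3a1, a fibrillar collagen, was called at 3.29 ± 0.50 (SE; adjusted p = 0.00389), whereas the median of the contractile genes was 0.05. The 18 differences among the 3 basal populations, compared in pairs, were at most 0.40 in size and none was called, beside 0%, 0.102% and 0.0682% of all features in the 3 pairs. The order of the basal populations was thus not resolved for any of the genes, and CD24medCD49f-/low was above CD24highCD49fmed in the mean of each.

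The genes varied together across the arrays. Pearson's r over the 10 arrays lay between 0.885 for Actg2 with Tgfb1i1 and 0.993 for Tagln with Mylk. These arrays share the step between basal and luminal cells, so the values are a description and not independent evidence of a shared pattern. The named genes most like the mean of the 6 were Fstl1 at 0.996, Snai2 and Sparc at 0.995 each, Id4 at 0.995, Trp63 at 0.994, then Selenom, Krt5, Gpr153, Tgfbr3 and Adamts1 at 0.993 each. Among these Krt5 and Trp63 mark basal epithelium, Snai2 is a zinc finger repressor, Tgfbr3 is a TGFβ coreceptor and Adamts1 is a secreted protease.

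The rest of the contractile apparatus was read from lists of genes by role. Of 62 listed genes in 4 lists 29 were in the table. In basal minus luminal, 26 were called higher, 3 lower and none was left uncalled, beside 34.7% of all features called higher and 41.3% called lower. Against CD24medCD49f-/low alone 26 were higher, 2 lower and 1 not called, beside 27.5% of all features called higher. Against CD24highCD49fmed alone 25 were higher, 3 lower and 1 not called, beside 30.6% called higher. Only probe sets with at least a 4-fold range over the arrays were kept by the authors, and genes not in the table therefore cannot be counted as unchanged. All 13 actin-binding genes in the table were higher, with a median of 2.29. Cnn1, calponin, a regulator of actomyosin, was 3.51 ± 0.35 (SE) higher, Flna, filamin A, an actin crosslinker, 3.35 ± 0.35, and Tpm2, a tropomyosin that lines the thin filament, 3.04 ± 0.33.

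Among 6 myosin genes measured, 5 were higher and 1 lower, with a median of 1.76. Myh11, the smooth muscle myosin heavy chain, was 2.66 ± 0.33 (SE) higher, Myh10, a nonmuscle myosin heavy chain, 1.97 ± 0.33, and Prkg1, a cGMP-dependent kinase that relaxes smooth muscle, 1.91 ± 0.34. Ppp1r12a, the targeting subunit of myosin phosphatase, was 1.61 ± 0.35 higher and Ppp1r14a, which inhibits that phosphatase, 1.41 ± 0.35 higher. Myl12b, a regulatory light chain of nonmuscle myosin, fell by 0.98 ± 0.34 and so went the other way from Myl9.

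Among 5 receptor and calcium genes measured, 4 were higher and 1 lower. Oxtr, the oxytocin receptor, was at 1.53 and 0.97 in CD24medCD49fmed, 1.80 and 0.68 in Thy-1+CD24medCD49fhigh and 1.57 and 0.74 in Thy-1-CD24medCD49fhigh. It was at -1.32 and -1.28 in CD24medCD49f-/low and at -1.99 and -2.70 in CD24highCD49fmed. Its arrays did not overlap between basal and luminal cells, and the difference was 3.04 ± 0.35 (SE; adjusted p = 5.10e-07, limma). Cacna1c, an L-type calcium channel subunit, was 2.08 ± 0.36 higher, Kcnmb1, a subunit of the calcium-activated potassium channel, 1.65 ± 0.32 and Gnaq, a G protein that couples the receptor to calcium release, 1.12 ± 0.37. Trpc6, a cation channel, fell by 3.37 ± 0.56, with a spread among basal arrays from -2.82 to 0.76.

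Among 5 regulators measured, 4 were higher and 1 lower. Csrp2, a LIM protein of smooth muscle, was 2.16 ± 0.38 (SE) higher, Tead1, a factor that binds MCAT motifs, 1.76 ± 0.33, Fhl1, a LIM-only protein, 1.49 ± 0.36 and Tgfbr1, a TGFβ receptor, 1.24 ± 0.35. Tgfbr2, its partner receptor, fell by 1.44 ± 0.33. None of the 29 genes of the 4 lists was called between the luminal populations, where the medians were 0.40 for actin-binding genes, 0.07 for myosin genes, -0.18 for receptors and -0.36 for regulators. Cnn1 at 1.45 ± 0.55 and Myh11 at 1.42 ± 0.51 had adjusted p-values of 0.236 and 0.213 (limma).

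**Figure D5:**
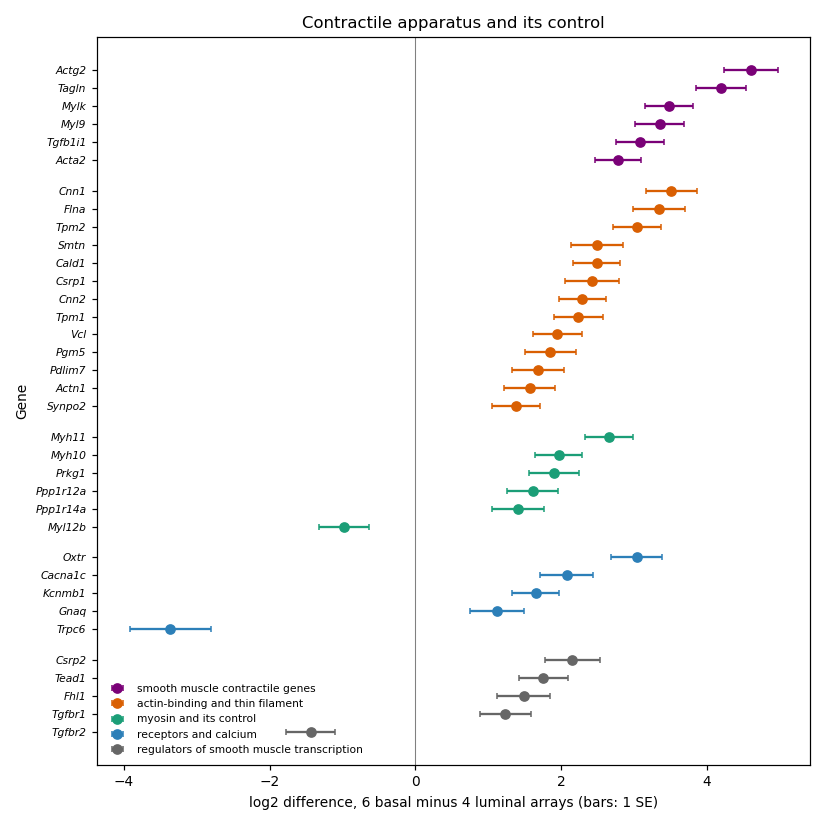
Log2 difference of basal minus luminal arrays (x axis) for the 6 contractile genes and for 29 further genes grouped by role (y axis). Points are differences with 1 SE from the fit of 6 basal and 4 luminal arrays. 32 of the 35 genes lie above 0, and Myl12b, Trpc6 and Tgfbr2 lie below it.

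Markers checked the labels. All 6 basal epithelial markers in the table were called higher in the basal arrays, with a median of 4.10, beside 34.7% of all features called higher. Of 7 luminal epithelial markers 4 were called lower, among them Krt18 at -1.44 ± 0.43 (SE), beside 41.3% of all features called lower. The luminal epithelial markers not called were Krt19 at -0.63 ± 0.62 (adjusted p = 0.344), Cldn4 at -0.77 ± 0.50 (adjusted p = 0.161) and Cldn7 at -1.22 ± 0.59 (adjusted p = 0.0634, limma). All 6 luminal progenitor and all 4 hormone-sensing markers in the table were called lower, with medians of -2.29 and -2.70, beside the same 41.3%. Krt19 was at 1.45 in CD24medCD49fmed replicate 3 and 1.56 in Thy-1+CD24medCD49fhigh replicate 2, within its luminal range of -0.99 to 1.75. Pericyte markers were called higher in 4 of 6 genes with a median of 0.98, and fibroblast markers in 6 of 6 with a median of 2.25, beside the same 34.7%. Pericytes and vascular smooth muscle also express contractile genes of these lists. Rgs5 was at 0.67 and -0.0037 in CD24medCD49fmed, 1.47 and 1.15 in Thy-1+CD24medCD49fhigh and 0.19 and 0.06 in Thy-1-CD24medCD49fhigh, so its Thy-1+ arrays were the highest while the contractile genes did not separate Thy-1+ from Thy-1- arrays. The median over the 6 pericyte markers lay between -0.18 and 1.10 in the basal arrays, at -0.20 and -0.51 in CD24medCD49f-/low and at -0.52 and -0.97 in CD24highCD49fmed. For the 6 fibroblast markers it lay between -0.15 and 1.77 in the basal arrays, at -0.99 and -1.11 in CD24medCD49f-/low and at -1.55 and -1.68 in CD24highCD49fmed. Lcp1, the leukocyte marker measured, was lower in basal cells at -1.76 ± 0.38. The part of such cells in the basal difference was not tested.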

How the data were processed

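RNA of 5 sorted mammary populations, 2 arrays each, was measured on Affymetrix mouse arrays with labelling in 2 cycles. The deposited table holds log2 intensities that the authors normalised (the labels name RMA and GCRMA, with no version), filtered for probe sets above a minimum level and with a range of 4-fold or more over the arrays, and centred per probe set. The largest absolute mean of a probe set was 3.00e-07 and the smallest range was 2.00 on the log2 scale. Because of that filter the tested features are not a sample of all genes, and centring leaves no signal over background. The number of arrays limits precision. Of 3663 probe sets 3291 had 1 symbol in the platform annotation, 75 several and 297 none. Values of the 554 genes with several probe sets were averaged, which gave 2932 features, 2560 of them named genes. One linear model with a mean per population was fitted to all 10 arrays (limma 3.58.1, R 4.3.3, lmFit and eBayes, 5 residual and 16.45 prior degrees of freedom), with two-sided tests and a call at a Benjamini-Hochberg adjusted p under 0.05. Difference and fold are on the log2 scale of the values unless called fold. The named genes were the 6 members, the genes of the lists by role and markers, and the 10 genes most correlated with the mean of the members. The members and lists were chosen with earlier results of these data known, and the alternatives were set with them, apart from those of the position between luminal and basal populations, which were added after the data were seen. Alternatives were array medians at 0, quantile normalisation, robust moderation, array weights, a replicate block, only the arrays compared, probe sets alone, a minimum difference of 1, and each array left out. The scripts were tested on simulated data. Figures were drawn with matplotlib 3.10.9.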

Additional observations from a re-analysis of the deposited data

How the results depend on the processing

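Basal minus luminal and basal minus CD24highCD49fmed kept their direction and call for all 6 contractile genes in 102 and 108 repeats under alternative settings, and basal minus CD24medCD49f-/low in 107 of 108, with Tgfb1i1 under array weights (adjusted p = 0.0613, limma) as the exception. With each array left out, basal minus luminal called 1768 to 2516 features against 2227, basal minus CD24medCD49f-/low 1004 to 1874 against 1342, and basal minus CD24highCD49fmed 1138 to 2403 against 2189, the lowest without CD24highCD49fmed replicate 1. Array weights gave 513 features for basal minus CD24medCD49f-/low. With array medians at 0 and with quantile normalisation, 43.1% and 43.2% of the calls in that comparison were higher against 60.1%, and array weights gave 71.3%. The largest shift of the median of all features was in CD24medCD49f-/low minus CD24highCD49fmed, at 0.03 with medians at 0 and -0.01 with quantile normalisation against -0.35.

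For CD24medCD49f-/low minus CD24highCD49fmed, 2 contractile genes were called, against 0 with quantile normalisation, array weights and only the arrays compared, and 0 to 2 with each array left out. Features called were 6, against 15 with medians at 0, 0 with quantile normalisation, 0 with array weights, 0 with only the arrays compared, 33 with the replicate block, 11 for probe sets alone, and 0 to 295 with each array left out, 295 without CD24medCD49f-/low replicate 1 and 118 without replicate 2. For CD24medCD49fmed minus CD24medCD49fhigh, no contractile gene was called in any setting, and the features called were 1, against 0 with quantile normalisation, 2 with array weights, 19 with the replicate block and 0 to 1 with each array left out. For Thy-1+CD24medCD49fhigh minus Thy-1-CD24medCD49fhigh no contractile gene was called either, and the features called were 2, against 1 with medians at 0, 1 with quantile normalisation, 9 with the replicate block, 13 with only the arrays compared, 1 for probe sets alone and 0 to 11 with each array left out, 11 without either CD24medCD49f-/low array. The cause of these changes was not tested.

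Uncalled differences among basal populations changed sign. In CD24medCD49fmed minus CD24medCD49fhigh, Acta2 was -0.0097 with medians at 0 and -0.11 with quantile normalisation, Actg2 0.18 with the replicate block, Tagln -0.017 and Myl9 -0.028 with quantile normalisation. With arrays left out they ran from -0.12 to 0.22 for Acta2, -0.47 to 0.41 for Actg2, -0.15 to 0.42 for Tagln and -0.017 to 0.29 for Myl9. In Thy-1+CD24medCD49fhigh minus Thy-1-CD24medCD49fhigh, Tagln was -0.16 and Myl9 -0.079 with medians at 0, and with arrays left out the ranges were -0.61 to 1.16 for Actg2, -0.56 to 0.58 for Tagln, -0.18 to 0.68 for Mylk, -0.21 to 0.40 for Myl9 and -0.54 to 0.30 for Tgfb1i1. Whether the replicate numbers pair the samples was not settled. Over 16 pairs with the same number, the correlations of deviations from group means ran from -0.51 to 0.52 and 4 were over 0.1. With 2 arrays per population the deviations mirror each other, so populations sharing both numbers give the same value for each number. The values over 0.1 came from the 2 luminal populations, at 0.52, and from Thy-1+ with Thy-1-, at 0.30. The block changed no call of a contractile gene. Basal minus luminal was not repeated with only the arrays compared, since it uses all arrays. The position of CD24medCD49f-/low, repeated with settings chosen after seeing the data, ran from 55.3% to 66.8% for Myl9, 59.1% to 68.6% for Tgfb1i1 and 7.08% to 20.5% for Actg2 with each array left out.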
